A study of Mus musculus with 2 samples.

Results

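The gene set described here holds 43 mouse genes of mitosis, from cyclins and Cdk1 to spindle motors and proteins of chromosome structure. They were taken as a named list and all 43 are among the 31053 features of both count matrices. The cells came from a mouse model of hepatocellular carcinoma, the Rb family Triple Knock Out. It targets the retinoblastoma gene family (Rb1, Rbl1 and Rbl2) and uses Cre to recombine floxed alleles. Which of these genes carry floxed alleles is not stated here. One library was prepared from early lesions of 3 pooled mice and another from macroscopic lesions, for which the labels give no number of mice. In both, tissue was dissociated with enzymes, YFP-positive cells (the marker of Cre recombination in this model) were sorted, and 10x 3' v3 libraries were sequenced. The animals are labelled untreated, and the promoter that drove Cre, the strain and the ages are not stated in the labels. With 1 library per stage and no map from barcodes to mice, no difference between stages has a replicate check and no p-value is given. Both libraries come from the same knockout model, so no comparison here is against liver from animals outside that model. Whether the cells of each gate had recombined the alleles was not tested, since no YFP feature is listed.

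Mitotic genes are transcribed in waves late in the cell cycle, and their proteins condense chromosomes, build the spindle, attach kinetochores to it and split the cell. In resting cells the RB family proteins hold E2F transcription factors in check, and RBL1 or RBL2 joins E2F4 and the MuvB proteins in the DREAM complex, which keeps mitotic genes silent through promoter elements called CHR. In cycling cells MuvB instead binds MYBL2 and FOXM1 and switches the same genes on, often beside CCAAT boxes bound by NF-Y. Most hepatocytes of adult liver are out of the cell cycle, whereas Kupffer cells, the resident macrophages of the liver, maintain themselves partly by division.

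Promoter windows are printed for 5 members because the proteins removed in this model act at elements of this kind. Each window, from RefSeq on GRCm38.p6, runs from 250 bases before the gene's start to 50 bases after it, and 38 of the 43 members had one. Capitals mark the letters TTTGAA or TTCGAA (CHR) and CCAAT, searched on both strands, so that TTCAAA and ATTGG are the matches to TTTGAA and CCAAT on the other strand and overlapping matches count separately. Cdk1 (chr10:69352863-69353162, minus strand), the kinase that starts mitosis, held 2 CHR and 3 CCAAT matches. Ccnb2 (chr9:70421505-70421804, minus strand), a cyclin that activates Cdk1, also held 2 and 3. Cdc20 (chr4:118437294-118437593, minus strand), an activator of the anaphase-promoting complex, held 1 and 2. Ube2c (chr2:164769679-164769978, plus strand), the ubiquitin-conjugating enzyme of that complex, held 1 and 6. Birc5 (chr11:117848987-117849286, plus strand), survivin of the chromosomal passenger complex, held neither and is shown as a member without a match.
Cdk1: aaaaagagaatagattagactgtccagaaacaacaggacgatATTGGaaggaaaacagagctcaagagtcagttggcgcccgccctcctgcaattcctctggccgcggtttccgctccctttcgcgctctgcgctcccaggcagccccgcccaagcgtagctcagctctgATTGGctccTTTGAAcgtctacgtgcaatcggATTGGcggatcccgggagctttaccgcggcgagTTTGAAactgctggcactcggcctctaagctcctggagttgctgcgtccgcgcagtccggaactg
Ccnb2: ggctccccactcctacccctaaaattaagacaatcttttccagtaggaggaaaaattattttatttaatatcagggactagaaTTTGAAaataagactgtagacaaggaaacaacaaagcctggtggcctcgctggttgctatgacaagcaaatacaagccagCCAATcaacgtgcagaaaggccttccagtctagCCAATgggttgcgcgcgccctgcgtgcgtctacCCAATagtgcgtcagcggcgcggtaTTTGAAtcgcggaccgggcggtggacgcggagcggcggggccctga
Cdc20: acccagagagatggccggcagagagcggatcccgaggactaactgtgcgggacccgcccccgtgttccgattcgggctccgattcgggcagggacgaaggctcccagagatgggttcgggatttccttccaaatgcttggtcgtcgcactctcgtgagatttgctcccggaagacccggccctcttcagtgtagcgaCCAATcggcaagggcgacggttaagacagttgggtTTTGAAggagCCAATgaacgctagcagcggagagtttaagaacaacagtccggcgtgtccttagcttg
Ube2c: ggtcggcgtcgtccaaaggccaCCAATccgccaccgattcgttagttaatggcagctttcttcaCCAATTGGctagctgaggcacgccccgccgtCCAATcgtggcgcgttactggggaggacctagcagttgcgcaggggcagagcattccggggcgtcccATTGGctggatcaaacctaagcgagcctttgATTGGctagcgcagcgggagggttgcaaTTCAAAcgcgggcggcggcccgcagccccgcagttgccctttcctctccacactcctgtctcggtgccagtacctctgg
Birc5: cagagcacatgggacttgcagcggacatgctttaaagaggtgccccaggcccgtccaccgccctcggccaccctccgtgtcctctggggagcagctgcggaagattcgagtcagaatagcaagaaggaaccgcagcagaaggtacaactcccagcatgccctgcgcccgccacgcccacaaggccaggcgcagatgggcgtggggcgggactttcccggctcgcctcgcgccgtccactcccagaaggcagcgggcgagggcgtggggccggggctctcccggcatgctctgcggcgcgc

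The CHR letters were found in windows of 30 of the 38 members (78.9%), against 19.2% of all 32817 promoter windows of that length. The CCAAT letters were also in 30 (78.9%, against 37.4% of all windows), and both were in 26 (68.4%, against 7.51%). In 27 members (71.1%) a CHR match lay in the last 100 bases of the window, against 5.31% of all windows. Windows without either motif belonged to 4 members, Birc5, Nuf2, Nusap1 and Tacc3, against 50.9% of all windows. Each of these is a match of letters in a window and no evidence of binding. The members Ccna2, Aurkb, Kif20a, Tpx2 and Smc4 had no window.

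Barcodes were assigned to cell classes by raw UMIs (unique molecular identifiers, each standing for 1 captured RNA molecule). The gates were Alb at 0.5% or more of a barcode's UMIs (hepatocyte gate), Krt19 and Krt7 at 2 or more together (duct gate), Clec4f, Cd5l and Marco at 3 or more (Kupffer gate), Gpnmb and Mmp12 at 3 or more (other macrophage gate), and Cd3e and Trbc2 at 2 or more (T cell gate). A barcode that met several gates went to the first in this order. Of 3221 early barcodes 2461 were kept (median 3047 UMIs), and of 256 macroscopic barcodes 212 (median 15714). No barcode sequence was shared between the libraries. Xist, the RNA of the inactive X chromosome, had 10348 UMIs in the early and 0 in the macroscopic library, so the sex of the animals cannot be told apart from the stage.

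The gates were checked with markers that they do not use. In the early library the 8 hepatocyte markers summed to 29495 CPM (counts of UMIs per 1000000 UMIs of the summed barcodes) in the hepatocyte gate and 944 in the Kupffer gate, the 8 duct markers to 8303 in the duct gate and 16.7 in the Kupffer gate, and the 8 Kupffer markers to 12159 in the Kupffer gate and 48.9 in the hepatocyte gate. The 7 T cell markers reached 4921 CPM in the T cell gate and were all at 0 in the hepatocyte gate. Each of these lists was highest in its own gate. The 2 macrophage gates were less distinct, and their marker lists share Cd68 and Csf1r. The other macrophage gate held Kupffer markers at 4591 CPM beside its own 8 at 4298, which stood at 2677 in the Kupffer gate, and 94 early barcodes met both gates. In the duct gate the hepatocyte markers reached 4919 CPM, and in the hepatocyte gate the duct markers reached 2630. Another 10 early barcodes met the hepatocyte and duct gates. No doublet caller was run.

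Early hepatocyte-gated barcodes had the highest summed mitotic level of the early library. In 62 barcodes (median 16106 UMIs) the 43 genes summed to 4157 CPM (4035 to 4281). This and every following range in parentheses is an exact 95% interval that covers counting error only. The level was 1838 CPM (1767 to 1910) in 91 duct-gated barcodes (median 11639 UMIs), 961 (938 to 985) in 1854 Kupffer-gated barcodes (median 2646), 736 (619 to 868) in 71 T cell-gated barcodes (median 2621) and 321 (294 to 350) in 195 other macrophage-gated barcodes (median 8094). None of these 5 intervals overlapped a neighbour, but they leave out the spread between barcodes. With each barcode weighted equally the T cell level was 743 CPM and the Kupffer level 724, the reverse order. In the macroscopic library 88 hepatocyte-gated barcodes (median 35882 UMIs) had 3400.2 CPM (3350 to 3451), 20 T cell-gated barcodes 1012 (861 to 1183), 8 other macrophage-gated barcodes 697 (590 to 817) and 4 Kupffer-gated barcodes 539 (404 to 705). Of these 4 Kupffer-gated barcodes, 3 also met the other macrophage gate. Without the barcode with most list UMIs the macroscopic other macrophage level was 503 CPM and the Kupffer level 387. The macroscopic other macrophage gate held Kupffer markers at 6523 CPM and its own markers at 3241. No macroscopic barcode was assigned to the duct gate.

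A class sum does not say whether many cells or a few carry the genes. Each barcode was therefore thinned at random to 2000 UMIs, shallower ones were left out, and barcodes with 3 or more mitotic UMIs were counted. In the early library this gave 32 of 60 hepatocyte-gated barcodes (53.3%, 40 to 66.3), 14 of 91 duct-gated (15.4%, 8.67 to 24.5), 141 of 1201 Kupffer-gated (11.7%, 9.97 to 13.7), 6 of 58 T cell-gated (10.3%, 3.89 to 21.2) and 6 of 189 other macrophage-gated barcodes (3.17%, 1.17 to 6.78). The hepatocyte share stood above all others and the other macrophage share below the hepatocyte, duct and Kupffer shares, while the duct, Kupffer and T cell shares overlapped. Shares expected over all possible draws were 62.0%, 18.6%, 11.1%, 16.6% and 3.43% in the same order, so the single draw was low for hepatocytes. Thinning left out 653 Kupffer-gated, 13 T cell-gated, 6 other macrophage-gated, 2 hepatocyte-gated and 0 duct-gated barcodes. Without thinning the shares were 88.7%, 94.5%, 20.7%, 26.8% and 49.2%, with the duct and other macrophage shares raised most.

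**Figure D1:**
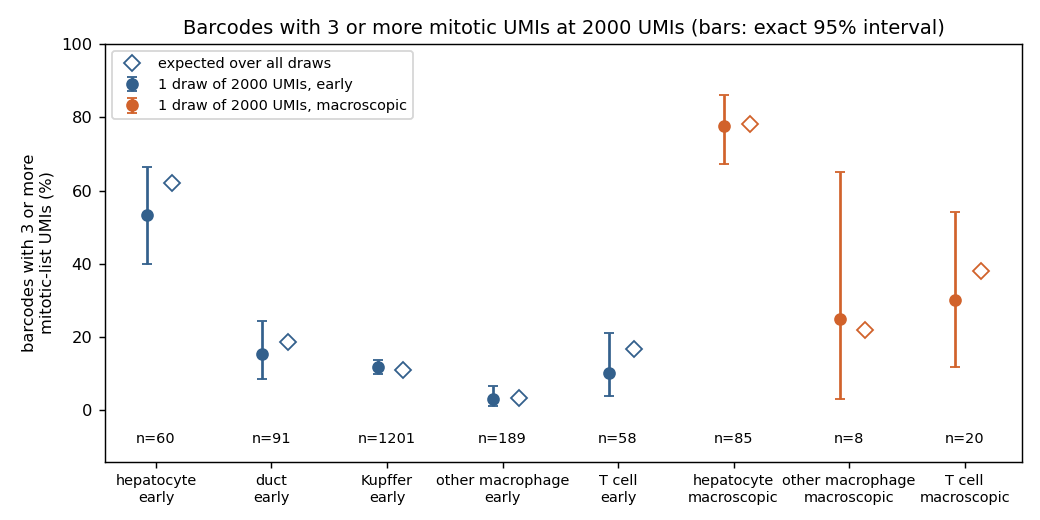
Share of barcodes (percent, vertical axis) with 3 or more UMIs of the 43 mitotic genes at 2000 UMIs per barcode, by gate and library. Filled circles are 1 random draw with the exact 95% interval, open diamonds the share expected over all draws, and n the barcodes deep enough; hepatocyte-gated barcodes stand at 53.3% in the early and 77.6% in the macroscopic library, and other macrophages at 3.17% in the early one.

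In the hepatocyte gate the genes were spread over many barcodes. The share of a barcode's UMIs from the list ran from 0.0111% to 2.41% in early hepatocyte-gated barcodes, with a median of 0.179%. None had 0 list UMIs before thinning. The 6 barcodes with most list UMIs held 52.6% of the gate's list UMIs. After thinning, 11 of the 60 (18.3%) had 10 or more and 6 had none. All 32 with 3 or more had them from at least 3 different members, and 30 of them also had 3 or more UMIs of a list of 45 G1/S genes. The 13 barcodes of this gate that also met another gate had 869 CPM, with 2 of 12 at 3 or more.

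In duct-gated cells a larger part of the list UMIs sat in few barcodes. The median share of a barcode's UMIs was 0.0527% and the highest 3.88%, the highest of any gate. There, 9 barcodes held 74.3% of the list UMIs. Of 91 thinned barcodes 8 (8.79%) had 10 or more and 27 had none, while 1 had none before thinning. The 14 barcodes with 3 or more had duct markers at 9576 CPM, against 8064 in the other 77, and a summed mitotic level of 8897 against 514 CPM. Without the single barcode with most list UMIs the duct level was 1444 CPM.

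Among Kupffer-gated cells, the most numerous class, 11.7% of thinned barcodes had 3 or more mitotic UMIs. Before thinning the median share was 0.0336% of UMIs, 641 of 1854 barcodes had no list UMI, and 185 barcodes held 72.6% of the list UMIs. Of the 1201 thinned, 549 had none, 511 had 1 or 2, and 44 (3.66%) had 10 or more. Of the 141 with 3 or more, 117 had them from at least 3 members and 75 also had 3 or more G1/S UMIs. These 141 had 5298 CPM of the list and 2856 CPM of the G1/S genes, and their Kupffer markers stood at 9835 CPM against 12695 in the 1060 with fewer. Alb stood at 162 and 201 CPM in these groups, and the duct markers at 13.9 and 14.4. Hepatocyte markers stood at 725 and 986 CPM and other macrophage markers at 2253 and 2881. Erythroid markers stood at 10.1 and 1244, and at 13.8 in the latter group without the 2 barcodes that held 4984 and 1175 of its 6228 erythroid UMIs, left out after seeing the data. The part of these other markers in the list level was not tested. The 94 that also met the other macrophage gate had 322 CPM, with 2 of 87 at 3 or more.

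The remaining early gates had no barcode with 10 or more mitotic UMIs at 2000 UMIs. The highest share of UMIs was 0.202% in the other macrophage gate and 0.323% in the T cell gate. Of the 6 T cell-gated barcodes with 3 or more list UMIs, 1 had them from 3 members. Hmgb2, a chromatin protein also present in cells that do not divide, gave 51.8% of the T cell gate's list UMIs and Smc4, a condensin subunit, gave 15.6%. Without 6 members that cells outside mitosis also use (Hmgb2, Cks1b, Cks2, Bub3, Ckap5 and Smc4), the level fell to 67.8 CPM (36.1 to 116) in early T cells and 99.5 (84.8 to 116) in other macrophages. It was 2907 (2805 to 3011) in hepatocytes, 1006 (954 to 1060) in duct cells and 519 (502 to 536) in Kupffer cells. With these 37 genes, 19 of 60 hepatocyte-gated (31.7%), 10 of 91 duct-gated (11.0%), 70 of 1201 Kupffer-gated (5.83%), 2 of 189 other macrophage-gated (1.06%) and 0 of 58 T cell-gated barcodes (a limit of 5.17%) had 3 or more.

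For comparison with a class in which division is not usual, 31 early neutrophil barcodes (1% or more of UMIs from S100a8 and S100a9, median 1511 UMIs) were measured in the same way. Whether their UMIs were free RNA was not tested. They had 1493 CPM of the whole list, of which Hmgb2 gave 67.1% and Cks2 24.3%. Without the 6 broad members they had 3 UMIs, or 64.0 CPM (13.2 to 187). With so few UMIs that interval is wide, and the Kupffer, duct and hepatocyte levels lay above it. Too few neutrophil barcodes were deep enough for a share at 2000 UMIs.

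**Figure D2:**
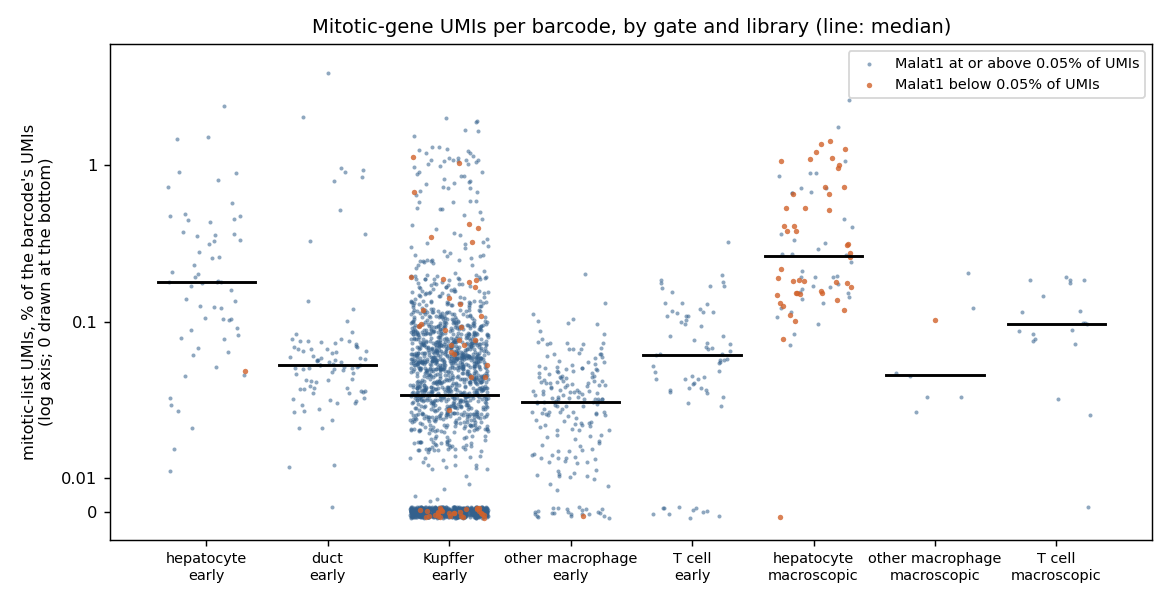
Mitotic UMIs as a percent of each barcode's UMIs (vertical, log axis, 0 drawn at the bottom), 1 point per barcode, by gate and library, with a line at the median. Medians are 0.179% in early and 0.262% in macroscopic hepatocyte-gated barcodes; orange points are barcodes with Malat1 under 0.05% of UMIs, 46 of them in the macroscopic hepatocyte gate.

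The members are taken by role next. A CPM value here is a level per gene, and each gene is compared with itself across gates, since the files give no counts per length. Among the cyclins and partners of Cdk1, Cdk1 itself had 184 CPM in early and 184 in macroscopic hepatocytes, 62.3 in duct cells, 27.1 in Kupffer cells, 1.84 in other macrophages and 0 in early T cells. Ccna2, the cyclin of S phase and early mitosis, had 118 and 82.9 CPM in early and macroscopic hepatocytes, 25.4 in duct cells, 16.7 in Kupffer cells and 0.614 in other macrophages. Ccnb1 and Ccnb2, the B-type cyclins that carry cells into mitosis, followed the same order of gates. Ccnb1 had 52.7, 36.8, 33.3 and 5.77 CPM and Ccnb2 108, 91.9, 39.1 and 10.4 CPM in early hepatocytes, macroscopic hepatocytes, duct cells and Kupffer cells. Neither had more than 1 UMI in early other macrophages or any in early T cells.

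Cks1b and Cks2 encode small subunits that bind Cdk complexes. Cks1b was the one member of this group higher in macroscopic than in early hepatocytes beyond counting error, at 116 against 72.4 CPM (ratio 1.6, 1.26 to 2.06). Cks2 had 164 and 140 CPM there, and Cdca3, a trigger of mitotic entry through Wee1 turnover, 111 and 122. Cks1b and Hmgb2 have near-identical processed copies in the genome, and how the counting split reads with those copies is not stated. Together the 7 members gave 19.5% of the list's UMIs in early hepatocytes, 16.8% in duct cells, 14.3% in Kupffer cells, 6.69% in other macrophages and 3.55% in T cells.

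The anaphase-promoting complex ends mitosis by marking cyclin B and securin for destruction. Its activator Cdc20 had 72.4 and 71.4 CPM in early and macroscopic hepatocytes, 48.6 in duct cells and 7.69 in Kupffer cells. Ube2c, its ubiquitin-conjugating enzyme, had 160 and 188 CPM in the hepatocytes, 79.0 in duct cells and 54.0 in Kupffer cells. Both were at 0 UMIs in early other macrophages and T cells. Against Kupffer cells, Ube2c was at least 29.3-fold lower in other macrophages, taking 3 UMIs over the sum as the floor.

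Of the 8 mitotic kinases and checkpoint proteins, all but Bub3 and Bub1b were at least 2-fold higher in early hepatocytes than in Kupffer cells. Plk1, Aurka and Aurkb, kinases of centrosomes, spindle and chromosomal passenger complex, had 32.9, 32.9 and 78.1 CPM in early hepatocytes and 25.4, 44.2 and 82.1 in macroscopic ones. In Kupffer cells they had 7.10, 7.84 and 11.4 CPM. Nek2, a centrosome kinase, had 26.3 and 33.6 CPM in the hepatocytes of the early and macroscopic library. Ttk and Bub1, kinases of the spindle checkpoint, had 31.0 and 17.9 CPM in early and 19.0 and 14.1 in macroscopic hepatocytes. Bub1b, the checkpoint protein BubR1, had 20.7 CPM in early hepatocytes, 13.6 in Kupffer cells and 13.5 in other macrophages. Bub3, a checkpoint subunit with other uses in the nucleus, was nearly level across gates, from 88.4 CPM in early hepatocytes to 125 in duct cells, with 92.2 in Kupffer cells, 89.7 in other macrophages and 99.1 in T cells.

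In the passenger complex, which corrects attachments at centromeres, Birc5 had 242 CPM in early and 355 in macroscopic hepatocytes (ratio 1.47, 1.29 to 1.68). It had 42.8 in duct cells, 37.0 in Kupffer cells, 1 UMI in other macrophages and 0 in early T cells. Cdca8, the subunit borealin, moved the other way, with 73.4 and 47.1 CPM in early and macroscopic hepatocytes (ratio 0.642, 0.496 to 0.840). Within the macroscopic hepatocyte gate 50.6% of thinned barcodes had a Birc5 UMI, against 23.3% in the early gate.

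At the centromere, Cenpa, the histone variant that marks it, had 104, 31.2, 42.5, 38.1 and 26.1 CPM in early hepatocytes, duct cells, Kupffer cells, other macrophages and T cells. Cenpf, a large protein of the outer kinetochore, had 114 CPM in early hepatocytes and 95 in duct cells but 9.17 in Kupffer cells. Its duct level was 10.4-fold that of Kupffer cells (7.60 to 14.2), the highest duct ratio of the list. Cenpe, a kinetochore motor, had 57.4, 31.2 and 8.14 CPM in those gates. Ndc80 and Nuf2, which form the microtubule-binding complex, had 19.8 and 31.0 CPM in early hepatocytes and 24.6 and 26.6 in macroscopic ones.

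Of the motors, Kif11 (the bipolar kinesin Eg5), Kif20a and Kif20b (kinesins of the late spindle and midbody) had 47, 29.2 and 43.3 CPM in early hepatocytes and 35.4, 32.7 and 35.4 in macroscopic ones. Kif2c, a depolymerising kinesin, had 13.2 and 19.4 CPM. Kif23, the motor of the central spindle, departed from the rest, with 20.7 CPM in early hepatocytes, 20.3 in duct cells and 23.2 in Kupffer cells. Among the spindle assembly factors, Ckap2 had 59.3, 78.8 and 5.47 CPM in early hepatocytes, macroscopic hepatocytes and Kupffer cells, Hmmr 36.7, 54.9 and 4.59, and Tpx2 43.3, 40.3 and 15.7. Nusap1, Ckap2l and Tacc3, further spindle proteins, had 48.0, 32.9 and 42.3 CPM in early hepatocytes and 14.1, 9.47 and 13.8 in Kupffer cells. Ckap5, a microtubule polymerase also used in interphase, had 43.3, 34.1, 34.6, 12.3 and 47 CPM in early hepatocytes, duct cells, Kupffer cells, other macrophages and T cells. The cytokinesis genes Anln (anillin), Ect2 and Racgap1 (proteins of the division midzone) had 44.2, 42.3 and 76.2 CPM in early hepatocytes, 16.6, 33.6 and 85.3 in macroscopic ones and 7.69, 2.96 and 16.9 in Kupffer cells.

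The chromosome structure genes gave 36.6% of the list's UMIs in early hepatocytes and 67.4% in T cells. Hmgb2 had 672 and 489 CPM in early and macroscopic hepatocytes, 451 in duct cells, 218 in Kupffer cells, 76.2 in other macrophages, 381 in early T cells and 525 in macroscopic T cells. Mki67, the Ki-67 protein that coats mitotic chromosomes, had 341 and 113 CPM in early and macroscopic hepatocytes, 71.0 in duct cells, 34.2 in Kupffer cells and 12.9 in other macrophages. Top2a, the topoisomerase that untangles sister chromatids, had 300.1 and 167 CPM in the hepatocytes, 79.7 in duct cells, 43.3 in Kupffer cells and 4.91 in other macrophages. Smc4 had 211 and 102 CPM in the hepatocytes, 95.7 in duct cells, 34.3 in Kupffer cells and 115 in early T cells. Mki67 and Top2a had no UMI in the 71 early T cells, for which the limit is 15.7 CPM.

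**Figure D3:**
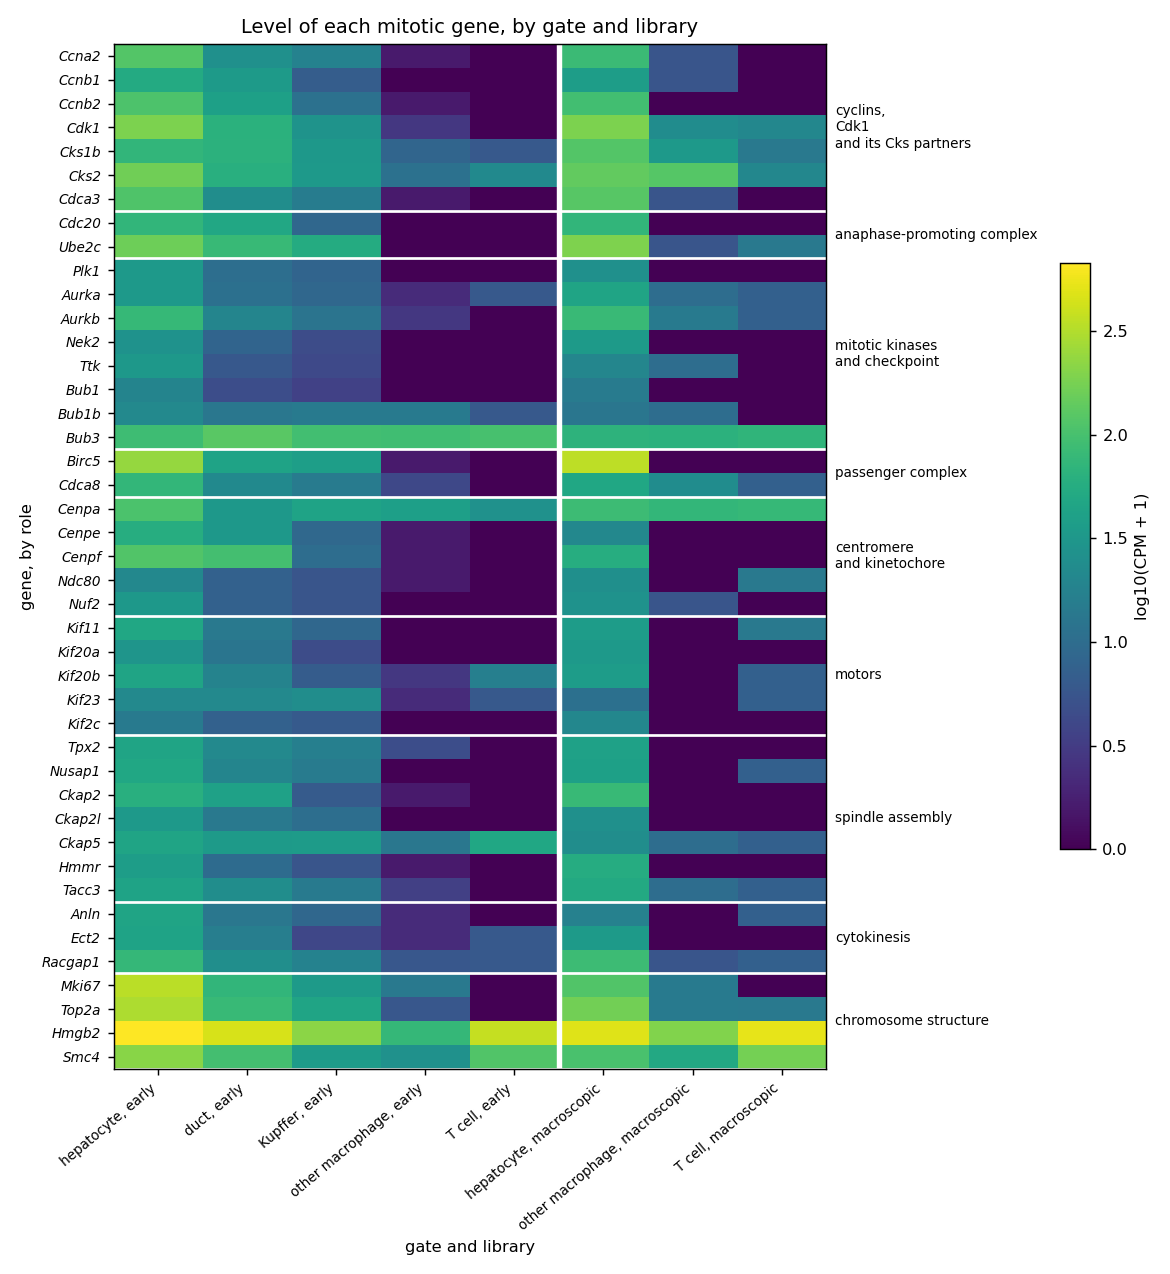
Level of each of the 43 mitotic genes (rows, grouped by role) in each gate and library (columns), as log10 of CPM plus 1, read down a row. The Bub3 row keeps its level across the early columns, whereas most other rows fade from the hepatocyte columns to the other macrophage and T cell columns.

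Set against Kupffer cells of the same library, 39 of 43 members were at least 2-fold higher in early hepatocytes and none 2-fold lower, where 29.8% of all 9764 measured genes were 2-fold higher and 22.3% lower. A gene counted as measured with 10 CPM in 1 sum and 20 UMIs in both together. The median member was 2.62 higher on the log2 scale, against 0.24 over all measured genes, and the sums differed 4.33-fold (4.16 to 4.49). The ratio was highest for Ect2 (14.3, 8.28 to 25.6) and Cenpf (12.4, 9.06 to 17.1). It was lowest for Kif23 (0.891, 0.543 to 1.40) and Bub3 (0.959, 0.764 to 1.19), and Ckap5 and Bub1b also stayed under 2-fold. Scaling the sums by the median of all gene ratios, a shift of 0.28, left 38 members higher. Of the 39, 19 had 10 CPM or more in Kupffer cells too, and 20 passed that minimum only through hepatocytes.

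The duct comparison with Kupffer cells changed with the weight given to each barcode. Of 35 measured members 14 were at least 2-fold higher (38.0% of all genes were) and 0 lower (15.4%), and the median was 0.75 against 0.60 over all genes. The sums differed 1.91-fold (1.83 to 2). Besides Cenpf the highest ratios were those of Ckap2 (7.42, 4.81 to 11.6) and Cdc20 (6.31, 4.33 to 9.25), and the lowest were Cenpa (0.734, 0.520 to 1.01) and Kif23 (0.874, 0.562 to 1.31). Median scaling, a shift of 0.59, left 9 higher (24.7% of all genes) and put 1 lower (23.4%), and giving each barcode equal weight made 25 of 34 higher (38.3% of all genes). Of the 14, 8 passed the CPM minimum only through duct cells.

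The summed level of other macrophages was 2.99-fold lower than that of Kupffer cells (2.74 to 3.28). Compared with Kupffer cells, 19 of the 23 members measured were lower by 2-fold or more, against 20.3% of all genes, and 0 were higher (6.51%). All 23 reached 10 CPM in Kupffer cells and 8 did in other macrophages, so 15 of the 19 were measured only through the gate where they were high, and nothing is read from the count. The 4 lower members at 10 CPM or more in both gates were Cks2, Ckap5, Mki67 and Hmgb2. The 4 measured members that did not fall 2-fold were Bub1b, Bub3, Cenpa and Smc4. Mki67 was 2.65-fold lower (1.69 to 4.36). Birc5, with 1 UMI against 250, had a ratio of 0.0166 (0.000419 to 0.0934), and Top2a was 8.82-fold lower (4.42 to 20.6). Birc5 and Top2a were under 10 CPM in other macrophages, so both are among the members measured only through Kupffer cells.

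Early T cells had too few UMIs for most members. Of 24 measured, 2 were at least 2-fold higher than in Kupffer cells (21.6% of all genes were), 8 lower (22.9%) and 6 could not be placed, because 0 UMIs in the T cell sum allowed either side. All 8 lower members had 0 or 1 T cell UMI and were measured only through Kupffer cells, so nothing is read from their count. Smc4 was 3.34-fold higher (2.06 to 5.19), while Kif20b rested on 3 T cell UMIs (ratio 2.78, 0.550 to 8.78). Between macroscopic and early T cells 3 members were measured, Bub3, Hmgb2 and Smc4, and none differed 2-fold, where 11.9% of genes were higher and 12.2% lower.

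Between stages, 6 of 43 members were at least 2-fold lower in macroscopic than in early hepatocytes and 0 higher, where 18.7% of 9063 measured genes were lower and 8.64% higher. The share of members lower was thus near the background. The median member was at -0.29 and the median gene at -0.27, and scaling by the median of ratios, a shift of -0.27, left 3 lower. The 6 were Mki67 (3.01-fold lower, 2.63 to 3.44), Cenpe (2.88, 2.06 to 3.99), Anln (2.66, 1.82 to 3.84), Kif23 (2.08, 1.20 to 3.48), Smc4 (2.06, 1.75 to 2.41) and Cenpf (2.03, 1.63 to 2.52). At the other end stood Cks1b and Hmmr (1.5, 1.07 to 2.15). By role, the chromosome structure genes were 1.75-fold lower (1.65 to 1.85) and the centromere genes 1.53-fold lower (1.35 to 1.72). The sum of the passenger pair was 1.28-fold higher (1.14 to 1.44), with Birc5 higher and Cdca8 lower. The intervals of the cyclin, anaphase-promoting complex, kinase, motor and spindle assembly sums held 1. The cytokinesis genes were 1.20-fold lower (1.01 to 1.42).

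**Figure D4:**
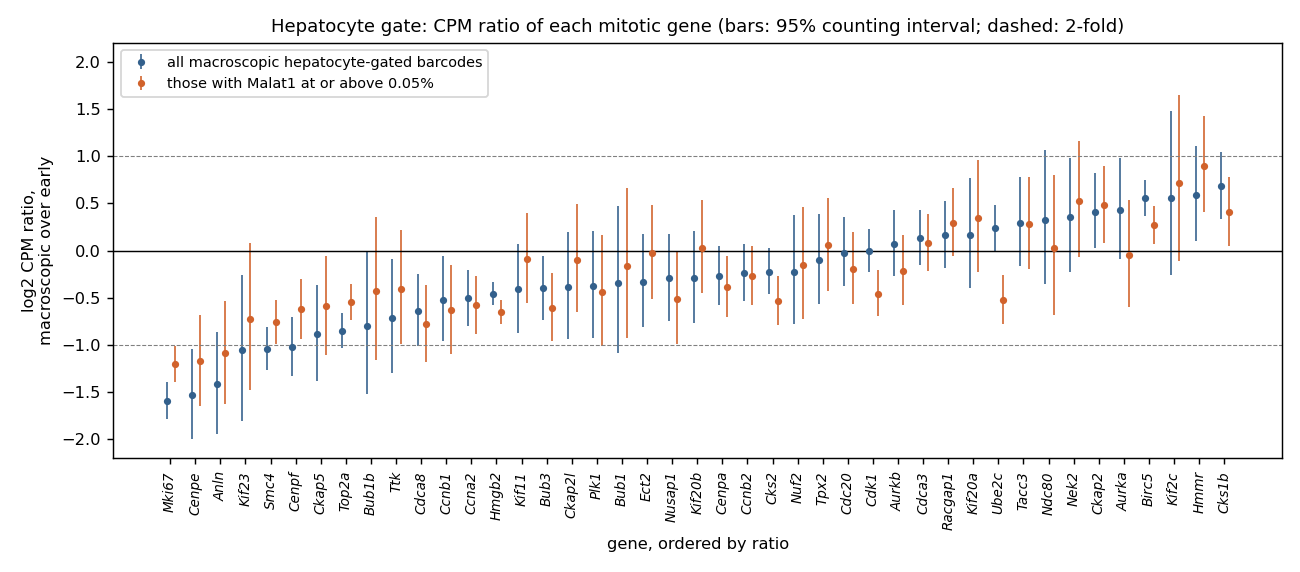
Log2 ratio of CPM, macroscopic over early hepatocyte gate, for each mitotic gene (horizontal axis, ordered by ratio), with 95% counting intervals and dashed lines at 2-fold. Blue uses all 88 macroscopic barcodes and orange the 42 with Malat1 at 0.05% of UMIs or more; Mki67, Cenpe and Anln lie below the lower line in both.

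The direction of the stage difference turned with the weight of each barcode. The summed level was lower in macroscopic hepatocytes (ratio 0.818, 0.791 to 0.846), but with each barcode weighted equally it was 4411 CPM against 3125 in early ones. At 2000 UMIs, 66 of 85 macroscopic hepatocyte-gated barcodes (77.6%, 67.3 to 86.0) had 3 or more mitotic UMIs against 53.3%, with 78.0% against 62.0% expected over all draws, and 23 (27.1%) against 11 of 60 (18.3%) had 10 or more. Because the share and the summed CPM point in opposite directions, no order of the stages is read from them. With equal weight 11 of 43 members were 2-fold higher, against 9.15% of all genes, and 4 lower (Mki67, Cenpe, Anln and Ttk), against 29.5%. The 11 were Ndc80, Aurka, Ube2c, Kif2c, Hmmr, Cdc20, Ckap2, Birc5, Nek2, Cdca3 and Cks1b.

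Mki67 (chr7:135689784-135716361 of GRCm38, minus strand) was at least 2-fold lower under each alternative tried for this comparison. Cenpe and Anln were too wherever they were measured, which excludes thinned barcodes, where 17 members had enough UMIs. It stood at 234 CPM in early and 82.5 in macroscopic hepatocytes with equal weight (2.84-fold lower), at 283 and 64.7 with thinned barcodes (4.38-fold), and at 285 and 105 without the barcode with most list UMIs in each sum (2.72-fold). Without Malat1-poor barcodes it was 2.3-fold lower (2.01 to 2.63). At 2000 UMIs a Mki67 UMI was seen in 25% of early and 10.6% of macroscopic hepatocyte-gated barcodes. Cdk1 gave 30.0% and 34.1%.

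The macroscopic hepatocyte gate was itself mixed in its Malat1 and mitochondrial content. Malat1, a nuclear RNA, made up under 0.05% of UMIs in 46 of its 88 barcodes, against 1 of 62 in the early hepatocyte gate. These 46 had a median of 21981 UMIs and 0.0811% mitochondrial UMIs, and the other 42 a median of 113528 UMIs and 7.56%. The part this plays in the stage difference was not tested beyond the values given here. The mitotic share had medians of 0.268% and 0.252% of UMIs, with 34 of 45 (75.6%) and 32 of 40 (80.0%) thinned barcodes with 3 or more list UMIs.

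Which mitotic genes were seen did differ between these barcodes. Against the 42, the 46 Malat1-poor barcodes had 3 members at least 2-fold higher, Ube2c (3.75, 3.29 to 4.27), Aurka (2.55, 1.94 to 3.33) and Cdk1 (2.48, 2.17 to 2.82), where 2.77% of all genes were. They had 15 members at least 2-fold lower, where 44.5% of all genes were, and 11 of the 15 passed the CPM minimum only through the 42. The lowest were Cenpf (23.7-fold, 9.15 to 87.6), Mki67 (15.8-fold, 8.99 to 30.8) and Bub1b, which rested on 2 UMIs against 59 (ratio 0.101, 0.0120 to 0.382). The median member was at -0.31 and the median gene at -0.72.

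The members with the longest transcripts stood lowest, with length taken as the longest coding transcript of the gene in GENCODE M21. The 6 members of 5000 bases or more (Cenpf, Mki67, Cenpe, Ckap5, Kif20b and Top2a) summed to 81.8 CPM in the Malat1-poor barcodes and 526 in the others, 6.43-fold lower (5.28 to 7.90). The 17 of 3000 to 5000 bases stood at 1249 and 1105 CPM, the 11 of 2000 to 3000 at 1463 and 902, the 7 of 1000 to 2000 at 704 and 492, and the 2 under 1000 (Cks1b and Cks2) at 397 and 209. All 5 bins hold fewer than 20 members. Over all measured genes the median log2 ratio in the same bins went from 0.62 under 1000 bases through 0.40, -0.45 and -1.61 to -2.75 at 5000 or more. As a description, the Spearman rank correlation between length and log2 ratio was -0.71 over the 43 members and -0.76 over 8348 genes, all from the same 2 sums of 1 library. With coding length alone, chosen after seeing the data, it was -0.88 and -0.71. Cdk1, with 4375 bases and 1.31 on the log2 scale, and Birc5, with 3334 and 0.90, lay farthest above the all-gene median of their bin.

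**Figure D5:**
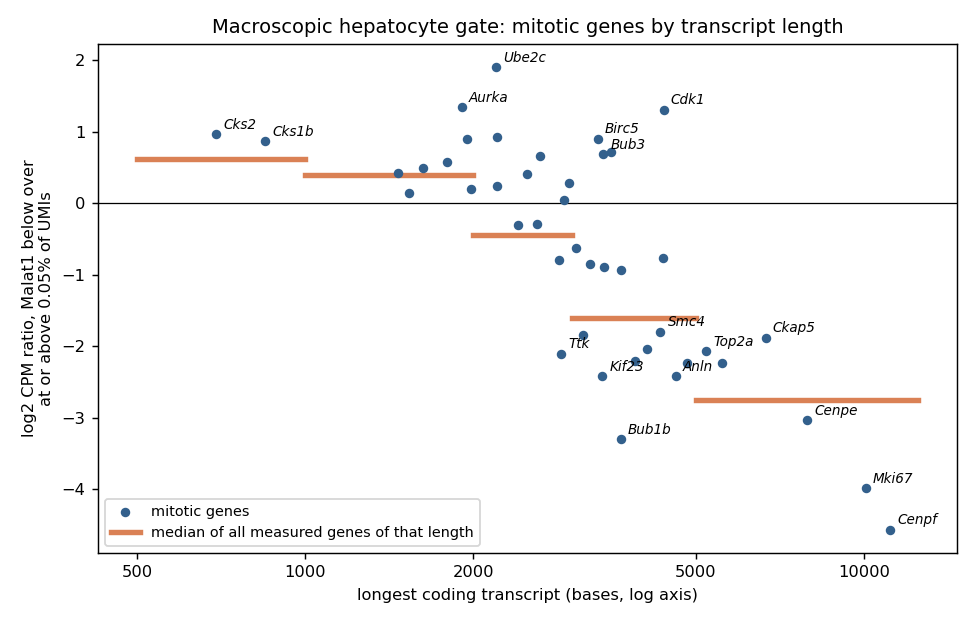
Log2 CPM ratio of each mitotic gene between Malat1-poor and other macroscopic hepatocyte-gated barcodes (vertical) against the length of its longest coding transcript in bases (log axis). Orange bars mark the median of all measured genes per length bin, from 0.62 to -2.75; Cenpf, Mki67 and Bub1b lie lowest, and Ube2c, Aurka and Cdk1 highest.

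With the 42 Malat1-rich macroscopic barcodes alone, 3 of 43 members were at least 2-fold lower than in early hepatocytes (Mki67, Cenpe and Anln) and 0 higher, where 14.9% and 10.3% of all genes were. The long members stood at 526 CPM against 898 in early hepatocytes, 1.71-fold lower (1.58 to 1.84), instead of 2.17-fold (2 to 2.34) with all 88 barcodes. The passenger pair had a ratio of 1.06 (0.939 to 1.20) with the 42, and the chromosome structure genes were 1.68-fold lower (1.58 to 1.78). Ube2c changed sides, from 1.18-fold higher (0.999 to 1.39) to 1.43-fold lower (1.19 to 1.72). Cdk1 moved from a ratio of 0.999 (0.856 to 1.17) to 0.729 (0.617 to 0.864).

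Other genes of the same program were also higher in early hepatocytes than in Kupffer cells. A list of 65 further mitotic genes summed to 3909 CPM in early and 2963 in macroscopic hepatocytes, and 51 of its 57 measured genes were at least 2-fold higher in early hepatocytes than in Kupffer cells, with 0 lower. Among them were Stmn1, the microtubule destabiliser stathmin, at 866 CPM in early and 329 in macroscopic hepatocytes, and Tubb4b, a beta tubulin, at 298 and 419. The 45 G1/S genes summed to 3986 and 3163 CPM, and 41 of 43 measured were at least 2-fold higher in early hepatocytes than in Kupffer cells. Of all measured genes 29.8% were higher and 22.3% lower. How many genes of these 2 lists passed the CPM minimum only through hepatocytes was not counted. With no filter on low genes 56 of 65 and 43 of 45 were higher, against 28.9% of all genes. In duct cells against Kupffer cells, 22 of 39 measured further mitotic genes (median 1.26) and 22 of 36 G1/S genes (median 1.39) were 2-fold higher, against the 14 of 35 members (median 0.75) and the 38.0% of all genes given above. Between stages 11 of 58 further mitotic genes were 2-fold lower and 3 higher, and 5 of 43 G1/S genes lower and 0 higher. Of all measured genes 18.7% were lower and 8.64% higher, so the share of further mitotic genes lower was near the background.

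Regulators of these genes were measured in the same hepatocytes. Foxm1 had 36.7 and 21.3 CPM in early and macroscopic hepatocytes, Mybl2 21.6 and 15.6, Lin54, the MuvB subunit that binds CHR elements, 29.2 and 27.4, and E2f4 36.7 and 24.1. Of the targeted family Rb1 had 19.8 and 5.67 CPM, Rbl2 11.3 and 4.30, and Rbl1 0 and 2 UMIs. A 3' count does not test a deletion elsewhere in a gene, so these levels neither check nor contradict the knockout.

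A listed gene on the opposite strand overlaps 10 members (Bub3, Ccna2, Cdc20, Cdca8, Ckap2l, Kif20a, Nek2, Nusap1, Tacc3 and Ube2c), and the labels do not say whether counting used strand. No listed gene overlaps a member on the same strand.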

How the data were processed

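RNA was measured in 2 droplet libraries (10x 3' v3), 1 per lesion stage, and the authors deposited raw UMI counts per gene and barcode. Tools listed in the submitters' processing notes are Seurat 2.3.0 and Cell Ranger 3.0.2, with mm10 as the build and no roles stated. The annotation used for counting and the authors' selection of barcodes are not given in the sources used here, and no YFP feature is listed.

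Barcodes with at least 1000 UMIs, 300 genes and at most 25% mitochondrial UMIs were kept. In the early library 656 of 3221 failed the UMI or gene minimum and 104 the mitochondrial limit, in the macroscopic library 24 and 20 of 256. This left 11859224 and 6977207 UMIs, where 1 UMI corresponds to 0.0843 and 0.143 CPM. Barcodes that met several gates numbered 113 and 5 and went to the first gate. Counts were thinned without replacement to 2000 UMIs (seed 0).

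CPM sums carry exact Poisson intervals, shares Clopper-Pearson intervals and CPM ratios conditional binomial intervals, all at 95% and for counting error only. A count of 0 was given a floor of 3 counts over the sum. With 1 library per stage there was no test. The ratio step was tested on simulated counts: of 200 genes changed 4-fold, 99.5% were recovered past 2-fold among 9063 genes (macroscopic over early hepatocytes) and 100% among 9764 (early hepatocytes over Kupffer cells). Of the unchanged genes 2.00% and 2.47% passed 2-fold. These counts were drawn with counting error only, so they say nothing of the spread between barcodes. Gene positions and lengths came from GENCODE M21 (GRCm38) by Ensembl identifier and promoter windows from RefSeq (GRCm38.p6) by symbol. Python 3.11.15, numpy 2.4.6, scipy 1.17.1 and matplotlib 3.10.9 were used.

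The members, gates and lists were chosen with earlier results of these data known. All 43 members are named, in 9 role groups, with the highest and lowest ratios of each comparison. Alternatives covered thinning depth, the UMI limit, gate assignment, barcode and Malat1 filters, weighting, scaling, low genes and a list without 6 broad members.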

Additional observations from a re-analysis of the deposited data

Results flagged for a closer look

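Barcodes outside every gate also held mitotic RNA. In the early library 18 of 124 ungated barcodes deep enough for thinning (14.5%, 8.84 to 22.0) had 3 or more list UMIs, and in the macroscopic library 39 of 83 (47%, 35.9 to 58.3). The ungated macroscopic barcodes summed to 2570.1 CPM of the list, with hepatocyte markers at 3720.4, endothelial markers at 1409.7 and fibroblast markers at 1278 CPM, and 42 of the 91 had Malat1 under 0.05% of UMIs. The 39 with 3 or more list UMIs had hepatocyte markers at 5921 and duct markers at 2292 CPM, against 1000 and 348 in the 44 with fewer. Of the thinned Malat1-poor ungated barcodes 26 of 35 had 3 or more, against 13 of 48 of the other ungated ones. What cells the ungated barcodes were was not tested.

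Barcodes that failed the filter carried the genes as well. The 760 failed early barcodes had 751 list UMIs, or 966 CPM (898 to 1037), where a count of 0 would allow 3.86. The 44 failed macroscopic barcodes had 159, or 541 CPM (460 to 631), with a limit of 10.2.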

How the results depend on the processing

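With 1 library per stage leaving out a replicate was not possible, and sex, mouse and preparation cannot be told apart from stage. No paired analysis was possible because each stage has 1 library. The gates of 4 to 20 macroscopic barcodes limit what can be read there. Of 180 alternative values 108 stayed within the main value's interval or 1.5 times the main count and 72 moved. The cause was not tested except where fewer UMIs, barcodes or genes enter by construction.

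Shares of barcodes are given in the order early hepatocyte, duct, Kupffer, other macrophage and T cell, then macroscopic hepatocyte and T cell, leaving out those that did not move. At 5000 UMIs they were 82.8%, 48.4%, 34.5% and 20.1%, then 97.6% and 76.5%, and no early T cell barcode was deep enough. At 1000 UMIs the Kupffer, other macrophage and T cell shares were 4.91%, 0.513% and 2.82%, and the macroscopic ones 53.4% and 10%. With a limit of 2 list UMIs they were 68.3%, 33.0%, 22.9%, 14.3%, 37.9% and, macroscopic hepatocyte, 89.4%. With a limit of 5 they were 36.7% (hepatocyte), 5.91% (Kupffer), 0.529% (other macrophage) and 0% (T cell), then 55.3% and 10%. Unthinned counts of the same barcodes gave 91.7%, 94.5%, 29.5%, 50.8% and 29.3%, then 100% and 90%. Without the 6 broad members they were 31.7% (hepatocyte), 5.83% (Kupffer), 1.06% (other macrophage) and 0% (T cell), then 60% and 5%.

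Summed CPM with equal weight per barcode was 3125 (early hepatocyte), 1732 (duct), 724 (Kupffer) and 4411 (macroscopic hepatocyte). Without the 6 broad members it was 2907, 1006, 519, 99.5 and 67.8 in the early gates, then 2462 and 205. With barcodes of exactly 1 gate it was 4666 (early hepatocyte) and 1045 (Kupffer), and with each gate on its own 1723 (duct). At most 10% mitochondrial UMIs gave 4519, 1110 and 3565 (early hepatocyte, Kupffer, macroscopic hepatocyte). Macroscopic hepatocytes had 3320.3 with no barcode filter and 3235 without Malat1-poor barcodes. Without the barcode with most list UMIs, an alternative chosen after seeing the data, the values were 3628, 1444, 902 and 3093 (early hepatocyte, duct, Kupffer, macroscopic hepatocyte).

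Between stages, members 2-fold lower numbered 3 of 43 with median scaling (11.9% of all genes), 2 of 17 with thinned barcodes (16.0%) and 3 of 43 without Malat1-poor barcodes (14.8%). Members higher numbered 5 of 17 with thinned barcodes (18% of all genes), 11 of 43 with equal weight (9.15%) and 1 of 43 with a gate of 1% Alb (10.7%). Against Kupffer cells, 23 of 29 were higher in early hepatocytes with thinned barcodes (23.5%), and 9 of 35 (median scaling, 24.7%) or 25 of 34 (equal weight, 38.3%) in duct cells. Other macrophages had 35 of 43 lower with no filter on low genes (16.9%) and 12 of 18 with equal weight (22.4%). T cells had 2 of 20 lower with thinned barcodes (21.3%) and 3 of 19 with equal weight (24%).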
